A study of Mus musculus with 16 samples.

Results

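The genes described are 9 ligands and receptors of the neurotrophin and GDNF families: Bdnf, Ntf3, Ntrk2, Ngfr, Gdnf, Gfra1, Gfra2, Gfra3 and Ret. They were chosen partly on measured values, the log2 change after 6 h with WS1442, in which Gfra3 was among the largest, so that contrast is described here for all 9 genes without a test, and Gfra3 has no test in any comparison that uses the 6 h arrays. They are 9 of the 44876 genes and unnamed transcripts on the array. Their probes carry accession numbers in place of symbols, so that 0 probes could be found by symbol alone, and 12 probes were found by looking up the accession in RefSeq. Of these, 9 probes of 7 genes passed the filter described further on. Gfra1 and Ret did not pass it.

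Murine embryonic stem cells of the CGR8 line, which carry a GFP reporter under the Myh6 promoter, were differentiated towards cardiomyocytes in multiwell plates. From day 4 they received DMSO, the hawthorn (Crataegus) extract WS1442 at 0.25 mg/ml or its MeOH eluate, a fraction of that extract, at 0.1 mg/ml. RNA of the cultures was collected after 6 h or 24 h. This gave 16 one-colour arrays in 6 groups, with 2 arrays per DMSO group and 3 per treated group. All groups share the reporter line and the starting day. The labels do not say whether replicates were separate cultures, so p-values measure the spread between these samples, and their small number limits the precision. The RNA came from mixed cultures, in which fewer cells of a type and less RNA per cell cannot be told apart.

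Neurotrophins are secreted as proproteins, cleaved, and then bind Trk receptor tyrosine kinases, while p75 (Ngfr) binds all of them and their uncleaved forms. Ligands of the GDNF family bind a GPI-anchored co-receptor of the GFR alpha family, and the pair then activates the receptor tyrosine kinase RET. Both systems are best known for survival and growth of peripheral neurons, GDNF also for branching of the kidney duct, and BDNF in the heart for survival of vessel endothelium.

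Signals are given as log2 of the scanner intensity after quantile normalization over the 16 arrays. A probe was tested when at least 1 group had it well above background, by the scanner software's call, on each of its arrays. Between 55.1% and 63.0% of gene spots per array met that call. RNA integrity numbers were 9.6 to 10, except 8.6 for WS1442 replicate 2 of 24 h. At 24 h the Cy3 dye per amount of labelled RNA was higher on every treated array than on both DMSO arrays. It was highest with WS1442. The part of labelling and RNA quality in the changes was not tested. The arrays of a time point lay on 1 slide, so that slide and time point cannot be told apart, and levels were compared only within a time point. Differences were tested with limma over all 36729 tested probes, and a gene was called at an adjusted p under 0.05 (Benjamini-Hochberg). Of the markers used to check the labelled cell type, the 10 of pluripotent cells and the 10 of mesoderm and cardiac progenitors were above background on all 16 arrays. The neural crest markers Pax3 and Ednrb and the neuronal factor Neurod1 were above background on 0 of 16 arrays.

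**Figure D1:**
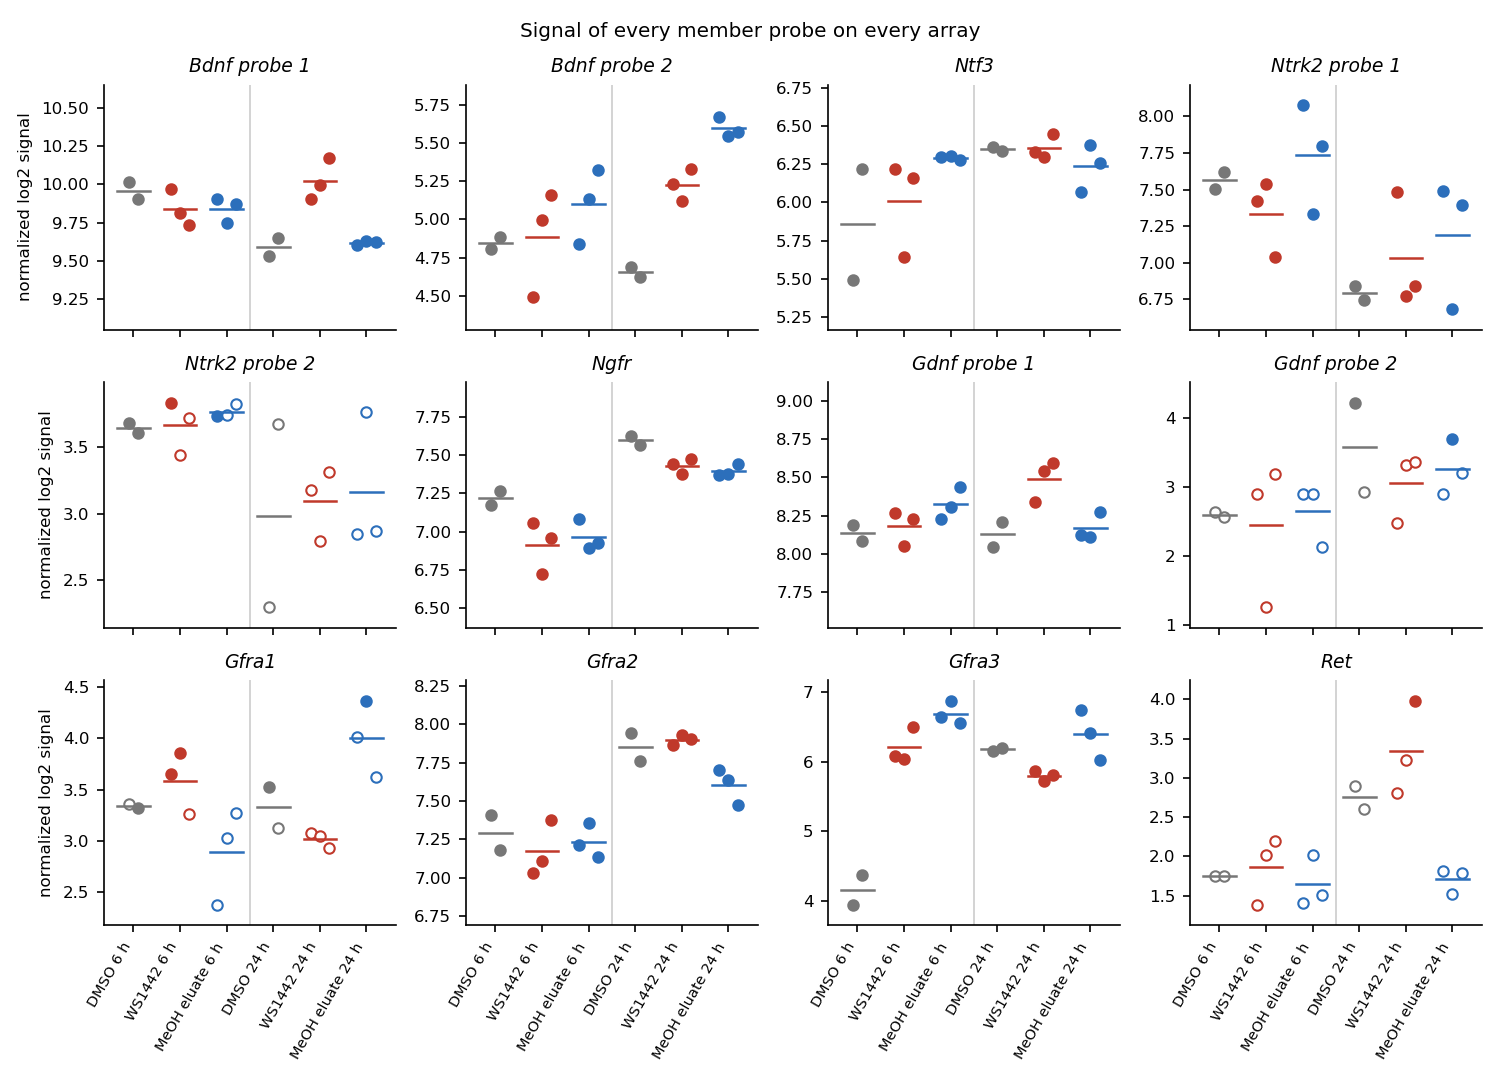
Normalized log2 signal (vertical axes, which differ in range between panels) of all 12 probes of the 9 genes on each of the 16 arrays. Points are arrays, filled where the probe was well above background and open where it was not, and bars are group means. The grey line parts the 6 h from the 24 h arrays. Gfra3 lies lowest on the 2 DMSO arrays of 6 h, and Bdnf and Gdnf (probe 1) lie higher on the 3 WS1442 arrays of 24 h than on the 2 DMSO arrays beside them.

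Bdnf (chr2:109674700-109727043, GRCm38.p6 throughout), the ligand of the receptor TrkB, was measured by 2 probes that did not behave alike. Both probe ends are shown because the result for MeOH eluate depends on which probe is read. Probe 1, which represents the gene here, lists 1 Bdnf transcript and is 54 bases long. Probe 2 lists 10 Bdnf transcripts and is 48 bases long. The last 30 bases of each, as printed in the array files and read 5′ to 3′, were not placed on a genome here.
Bdnf probe 1: tgaagagaaggggaaatatatagtaagagt
Bdnf probe 2: tctatggtaaagatattattcaccatgtaa

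With WS1442 for 24 h, Bdnf rose on both probes. Probe 1 read 9.53 and 9.65 on the DMSO arrays and 9.91, 10.00 and 10.17 on the WS1442 arrays. All 3 WS1442 arrays lay above both DMSO arrays. The log2 change was 0.43 (SE 0.08, limma adjusted p = 0.00186), a 1.35-fold rise. Probe 2 read 4.69 and 4.62 with DMSO and 5.23, 5.12 and 5.33 with WS1442. Here too the groups did not overlap, and the log2 change was 0.57 (SE 0.19, limma adjusted p = 0.0458). The call of probe 2 was lost in 16 of the 25 alternative settings, among them every one that left out a 24 h array (adjusted p between 0.0573 and 0.143).

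With MeOH eluate for 24 h the probes parted. Probe 1 read 9.60, 9.63 and 9.62, between the 2 DMSO arrays, with a log2 change of 0.03 (95% interval -0.15 to 0.21, limma adjusted p = 0.888). Probe 2 read 5.67, 5.55 and 5.57, above both DMSO arrays and above all 3 WS1442 arrays. Its log2 change was 0.94 (SE 0.19, limma adjusted p = 0.0032), a 1.92-fold rise, and it was 0.39 with another background correction (normexp). In the direct comparison at 24 h, the log2 difference of MeOH eluate from WS1442 was -0.41 on probe 1 (SE 0.07, limma adjusted p = 0.00282) and 0.37 on probe 2 (SE 0.17, limma adjusted p = 0.184). The part that transcript choice or the low signal of probe 2 plays in this was not tested.

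At 6 h Bdnf showed no comparable shift. Probe 1 read 10.01 and 9.91 with DMSO, 9.97, 9.81 and 9.73 with WS1442, and 9.90, 9.75 and 9.87 with MeOH eluate, so that WS1442 overlapped DMSO and the 3 MeOH eluate arrays lay just below both DMSO arrays. The log2 change was -0.12 with either treatment, and for MeOH eluate its 95% interval was -0.30 to 0.06 (limma adjusted p = 0.383). Probe 2 ranged from 4.49 to 5.33 over these 8 arrays, with a log2 change of 0.25 with MeOH eluate (limma adjusted p = 0.428).

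Gdnf (chr15:7810048-7837580), which signals through its co-receptor Gfra1 and RET, also rose with WS1442 for 24 h on the probe that passed the filter. Probe 1 read 8.05 and 8.21 with DMSO and 8.34, 8.54 and 8.59 with WS1442. All 3 WS1442 arrays lay above both DMSO arrays. The log2 change was 0.36 (SE 0.10, limma adjusted p = 0.0155), a 1.29-fold rise. Gdnf probe 1 was no longer called without the DMSO replicate 1 (log2 change 0.28, adjusted p = 0.169) or without the WS1442 replicate 3 (0.31, adjusted p = 0.0638).

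MeOH eluate left Gdnf near DMSO at 24 h. Its arrays read 8.12, 8.11 and 8.28, overlapping DMSO, with a log2 change of 0.04 (95% interval -0.17 to 0.25, limma adjusted p = 0.859). Against WS1442 at 24 h, MeOH eluate was lower by a log2 difference of -0.32 (SE 0.09, limma adjusted p = 0.0255), and all 3 of its arrays lay below the 3 WS1442 arrays. This Gdnf call was lost without WS1442 replicate 2 or 3 or MeOH eluate replicate 1 or 2 of 24 h (adjusted p between 0.0772 and 0.126). At 6 h the DMSO arrays read 8.19 and 8.09, those with WS1442 8.27, 8.05 and 8.23, and those with MeOH eluate 8.23, 8.31 and 8.44. Only the MeOH eluate arrays lay wholly above DMSO, with a log2 change of 0.19 (SE 0.10, limma adjusted p = 0.221). Gdnf probe 2 was above background on 2 of 16 arrays and was not tested.

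Counted by gene, 2 of the 7 testable members were called with WS1442 at 24 h, both higher, where 24.7% of all genes were called and 12.8% were called higher. With MeOH eluate at 24 h the count was 0 of 7, against 18.2% of all genes, with 1 gene (Gfra2) at an unadjusted p under 0.05 in limma and 0 genes with Student's t-test after adjustment. With MeOH eluate at 6 h it was 0 of 6, against 17% of all genes, with 2 genes (Ntf3 and Ngfr) at an unadjusted p under 0.05 in limma and 0 genes with Student's t-test after adjustment. Between MeOH eluate and WS1442, whose doses differ, it was 0 of 6 at 6 h (12.1% of all genes; 0 genes at an unadjusted p under 0.05 in limma) and 3 of 7 at 24 h (14.5% of all genes), namely Bdnf and Gdnf lower (7.09% of all genes) and Gfra3 higher (7.37% of all genes). The MeOH eluate effect at 24 h minus that at 6 h was called for 0 of 6, against 7.65% of all genes, with 0 genes at an unadjusted p under 0.05 in limma. Bdnf enters all these counts by probe 1 only. Its probe 2 was called higher with MeOH eluate at 24 h (log2 change 0.94). Against WS1442 at 24 h probe 2 read 0.37 and was not called. For the effect at 24 h minus that at 6 h, probe 2 had an unadjusted p of 0.0245 in limma (adjusted p = 0.161). In these 5 comparisons between groups no tested member passed the study's limits of a 2-fold change with an unadjusted p under 0.05, which 2.1% of all genes passed with MeOH eluate at 6 h, 2.09% with WS1442 at 24 h, 3% with MeOH eluate at 24 h, and 1.2% at 6 h and 0.482% at 24 h between the treatments.

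**Figure D2:**
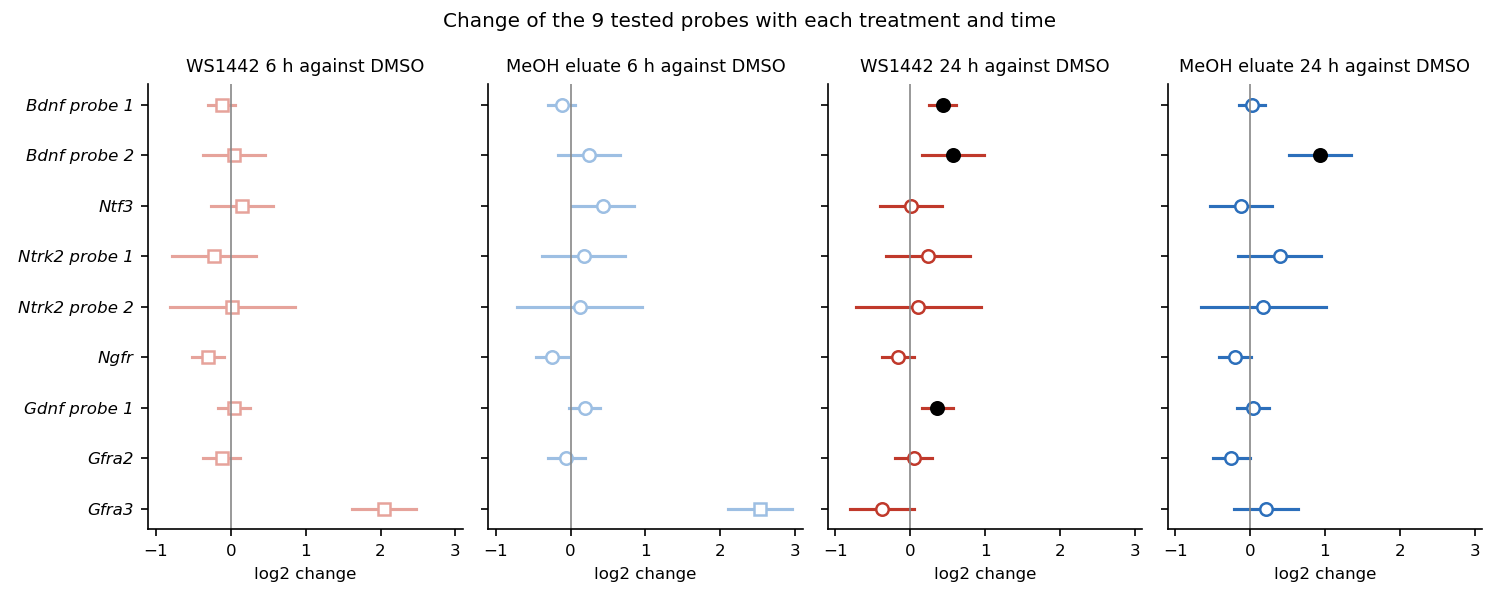
Log2 change against the DMSO arrays of the same time (horizontal axis) of the 9 probes that passed the filter, with 95% intervals from limma. Black points are called at an adjusted p under 0.05, open circles are tested and not called, and open squares are descriptions without a test. The black points are Bdnf and Gdnf with WS1442 at 24 h and Bdnf probe 2 with MeOH eluate at 24 h, and the squares farthest to the right are Gfra3 at 6 h (2.05 and 2.53).

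Stretches before transcript starts of Bdnf and Gdnf are shown because the core of a cAMP response element, the site of the factor CREB, was found in 1 window of each. RefSeq windows of 250 bases before the start (GRCm38.p6) were available for 6 of the 9 genes, 14 windows in all, 7 of them Bdnf starts. TGACG or its other strand CGTCA occurred in 2 of these 14 windows and in 17.8% of all 32851 windows. The complete palindrome TGACGTCA, which contains it, occurred in 0 of the 14 and in 1.55% of all windows. The match is a description of letters and not of a bound site. Its part in the 24 h changes, and whether this Bdnf start gives the transcript of probe 1, were not tested. In the Bdnf window at chr2:109692186-109692435 (plus strand) the core, in capitals, begins 35 bases before the start. In the Gdnf window at chr15:7809798-7810047 (plus strand) it begins 50 bases before the start, and a TATAAA box, a motif present in 12.4% of all windows, begins 31 bases before it.
Bdnf window: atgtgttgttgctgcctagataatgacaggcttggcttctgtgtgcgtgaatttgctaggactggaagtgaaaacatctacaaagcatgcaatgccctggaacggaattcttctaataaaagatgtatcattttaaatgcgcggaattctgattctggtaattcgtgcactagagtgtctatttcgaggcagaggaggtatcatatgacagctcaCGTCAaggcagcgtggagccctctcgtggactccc
Gdnf window: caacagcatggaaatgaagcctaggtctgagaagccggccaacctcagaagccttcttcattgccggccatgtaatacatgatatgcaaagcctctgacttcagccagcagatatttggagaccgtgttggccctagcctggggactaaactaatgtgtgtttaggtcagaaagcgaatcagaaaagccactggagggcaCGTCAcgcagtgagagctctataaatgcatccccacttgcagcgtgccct

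Ntf3 (chr6:126101412-126166772) encodes neurotrophin 3, the main ligand of TrkC. Its signal on the 6 h DMSO arrays was far apart, 5.49 and 6.22. The arrays with MeOH eluate read 6.30, 6.30 and 6.28, just above the higher of them, and those with WS1442 read 6.22, 5.64 and 6.16. The log2 change with MeOH eluate was 0.44 (SE 0.19, limma adjusted p = 0.145), and leaving out DMSO replicate 2 made it 0.80 (adjusted p = 0.0215) while leaving out replicate 1 made it 0.07. At 24 h all 8 arrays lay between 6.07 and 6.45, with log2 changes of 0.01 with WS1442 (limma adjusted p = 0.984) and -0.12 with MeOH eluate (limma adjusted p = 0.778).

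Ntrk2 (chr13:58806472-59133970) encodes TrkB, the kinase receptor of BDNF. Probe 1 was above background on all 16 arrays but scattered widely. With MeOH eluate it read 8.08, 7.33 and 7.80 at 6 h against 7.50 and 7.62 with DMSO, and 7.49, 6.68 and 7.39 at 24 h against 6.84 and 6.74. The treated arrays lay on both sides of DMSO at each time, and the log2 changes were 0.18 (95% interval -0.38 to 0.73) and 0.40 (95% interval -0.16 to 0.96). With WS1442 the changes were -0.23 at 6 h and 0.24 at 24 h (limma adjusted p = 0.558), and its arrays overlapped DMSO at both times. The other Ntrk2 probe was above background on 4 of 16 arrays, all at 6 h, and none of its changes was called.

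Ngfr (chr11:95568818-95587698) encodes p75, the receptor that all neurotrophins share. At 6 h it read 7.17 and 7.26 with DMSO, 7.05, 6.72 and 6.96 with WS1442 and 7.08, 6.89 and 6.92 with MeOH eluate. At 24 h it read 7.63 and 7.56 with DMSO, 7.44, 7.38 and 7.47 with WS1442 and 7.37, 7.38 and 7.44 with MeOH eluate. The treated arrays lay below both DMSO arrays in each of the 4 comparisons, which share DMSO arrays in pairs. The log2 changes were small, -0.31 with WS1442 and -0.25 with MeOH eluate at 6 h (limma adjusted p = 0.101), and -0.16 (adjusted p = 0.258) and -0.20 (adjusted p = 0.2) at 24 h. None was called.

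Gfra3, the co-receptor that binds artemin, was the gene on which the choice rested. At 6 h it read 3.94 and 4.37 with DMSO, 6.08, 6.03 and 6.50 with WS1442 and 6.63, 6.87 and 6.55 with MeOH eluate. Every treated array lay above both DMSO arrays. The log2 difference was 2.05 for WS1442 and 2.53 for MeOH eluate, which ranked 1 and 5 by size of rise among 29231 genes. These values chose the gene and are a description. Gfra3 was the 1 member over 2-fold with WS1442 at 6 h, where 0.732% of all genes were over 2-fold.

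The size of the 6 h difference followed the background correction. With normexp in place of the scanner's own correction it was 0.80 for WS1442 and 1.08 for MeOH eluate, and in the other 25 settings it lay between 1.83 and 2.26 for WS1442. On all arrays Gfra3 was called well above background, DMSO at 6 h included.

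At 24 h Gfra3 read 6.16 and 6.19 with DMSO, 5.87, 5.72 and 5.80 with WS1442 and 6.74, 6.41 and 6.02 with MeOH eluate. WS1442 now lay below both DMSO arrays and MeOH eluate on both sides of them. The log2 changes were -0.38 with WS1442 (95% interval -0.80 to 0.05, limma adjusted p = 0.197) and 0.22 with MeOH eluate (95% interval -0.21 to 0.64, limma adjusted p = 0.543). All 3 MeOH eluate arrays exceeded the 3 WS1442 arrays, by a log2 difference of 0.59 (SE 0.18, limma adjusted p = 0.0397). That call was lost in 10 of 26 alternative settings, among them leaving out any 1 WS1442 array or MeOH eluate replicate 1 or 2 of 24 h.

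Gfra2 (chr14:70890107-70979840), the co-receptor of neurturin, read 7.95 and 7.76 with DMSO, 7.86, 7.93 and 7.90 with WS1442 and 7.71, 7.63 and 7.48 with MeOH eluate at 24 h. MeOH eluate lay below the DMSO arrays and WS1442 between them. The log2 changes were -0.25 with MeOH eluate (SE 0.12, limma adjusted p = 0.167) and 0.04 with WS1442 (limma adjusted p = 0.826), and MeOH eluate against WS1442 gave -0.29 (limma adjusted p = 0.0741), which was called in a fit to the 24 h arrays alone (adjusted p = 0.0409). At 6 h all 8 arrays lay between 7.03 and 7.41.

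Gfra1 (chr19:58235581-58455946), the co-receptor of GDNF, was above background on 5 of 16 arrays and never on a whole group. Its measured values ranged from 2.38 to 4.37. Ret (chr6:118151748-118197744), the kinase receptor shared by the GDNF family, was above background on 1 of 16 arrays, WS1442 replicate 3 at 24 h, which read 3.98. Neither gene was tested in the fit reported here, and a signal below background does not show that a transcript was absent.

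Markers of cells that use these systems were read beside the 24 h results. Of 10 neural crest markers 8 were tested, and 4 rose with WS1442 at 24 h, among them Tfap2b by 1.05 on the log2 scale (limma adjusted p = 6.65e-05), with 0 lower, where 12.8% of all genes were called higher and 11.8% lower. Their summed linear signal was 6216 to 6662 with WS1442, 5343 to 5755 with MeOH eluate and 4884 to 5018 with DMSO. Such sums follow the brightest markers of a list. The median log2 change of the 8 crest markers with WS1442 was 0.055, near the 0.045 of all genes. With MeOH eluate 1 crest marker was called higher and 1 lower. Of 10 nephric mesoderm markers 3 rose and 1 fell with WS1442, and 0 rose and 4 fell with MeOH eluate, where 9.61% of all genes were called higher and 8.55% lower. Their summed signal was 8423 to 9269 with WS1442, 5084 to 6295 with MeOH eluate and 7397 to 7987 with DMSO at 24 h. For other lists the sum, though not each gene, lay lower than DMSO with WS1442. The neuroectoderm markers (8 of 10 tested) summed to 18160 to 19500 with WS1442, 16620 to 19170 with MeOH eluate and 22460 to 23640 with DMSO. Yet 3 of them were called higher and 1 lower with WS1442, and their median log2 change was 0.26. Those of mesoderm and cardiac progenitors summed to 2578 to 2813, 2161 to 2479 and 2959 to 3098, and those of pluripotent cells to 15530 to 16450, 16540 to 18330 and 16840 to 17650, in the same order of groups. Of the mesoderm and cardiac markers 1 was called higher and 2 lower with WS1442, and 0 higher and 3 lower with MeOH eluate. Of the pluripotency markers 1 was called higher and 3 lower with WS1442, and 0 higher and 1 lower with MeOH eluate. For the autonomic and enteric neurons the sums with WS1442 and DMSO overlapped (8947 to 9277 and 9130 to 9265), and MeOH eluate read 9718 to 11020. Of these markers 1 was called higher and 1 lower with WS1442, and 1 higher and 2 lower with MeOH eluate. The part of any of these cell types in the changes of Bdnf, Gdnf and Gfra3 was not tested.

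The other genes of the pathway were taken from 6 lists of ligands and receptors, processing enzymes, p75 partners, Trk and RET adaptors, and genes that TrkB or RET signalling is known to induce. Of 86 listed genes that are not members 80 were tested. With WS1442, 11 of them (13.8%) were called at 6 h, where 5.27% of all genes were called, and 36 (45%) at 24 h, where the share of all genes was 24.7%. With MeOH eluate, 18 (22.5%) were called at 6 h and 28 (35%) at 24 h, against 17% and 18.2% of all genes. The lists were chosen with earlier results of these data known, and all genes were not matched to them by signal level. These shares are therefore a description and say nothing on the pathway as a whole. The median log2 change of the lists was between -0.01 and 0.09 in these 4 comparisons, and that of all genes between -0.01 and 0.05.

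**Figure D3:**
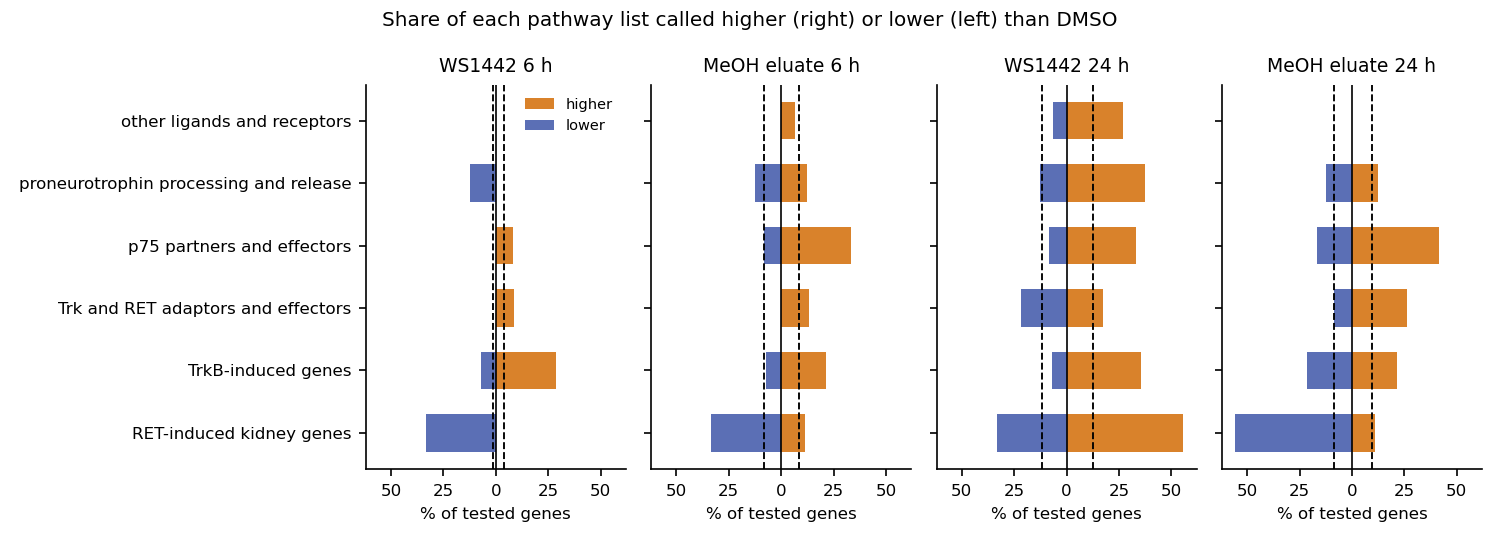
Share of the tested genes of each pathway list (horizontal axis, %) called higher (right) or lower (left) than DMSO at an adjusted p under 0.05, for each treatment and time. Dashed lines give the share of all genes called in that direction. The RET-induced kidney genes reach farthest to both sides with WS1442 at 24 h, with 5 of 9 higher and 3 of 9 lower.

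Among the other ligands and receptors, 4 rose with WS1442 at 24 h, 1 fell, and 10 of 15 were not called. Of all genes, 12.8% were called higher and 11.8% lower in that comparison. Among those that rose, Ntf5, another ligand of TrkB, rose by 0.36 on the log2 scale (limma adjusted p = 0.00312). Artn, the ligand of Gfra3, rose by 0.87 (adjusted p = 0.0325), and Ncam1, an alternative receptor for GDNF, by 0.31 (adjusted p = 0.0123). With MeOH eluate at 24 h Ntf5, Artn and Ncam1 were not called, and their log2 changes were 0.04 for Ntf5, 0.68 for Artn (adjusted p = 0.108) and 0.05 for Ncam1. At 6 h sortilin (Sort1), the partner of p75 in binding uncleaved neurotrophins, rose by 0.39 with MeOH eluate (adjusted p = 0.00476). It read 0.27 with WS1442 (adjusted p = 0.0722). The other 14 genes were not called at 6 h with either treatment, where 17% (MeOH eluate) and 5.27% (WS1442) of all genes were called.

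Processing enzymes of proneurotrophins were led by Pcsk5, a proprotein convertase, which fell in all 4 comparisons, with log2 changes of -0.81 (6 h) and -1.51 (24 h) under WS1442, and -1.19 (6 h) and -1.96 (24 h) under MeOH eluate. Of the related convertases, Pcsk6 and Pcsk7 rose with WS1442 at 24 h by 0.21 and 0.39. The proteases Mmp3 and Mmp7 were above background on 0 arrays. Of the 12 tested partners of p75, Nradd, a p75-like receptor, rose in all 4 comparisons by 0.16 to 0.29 on the log2 scale, and Bex1 and Bex3, which bind p75, rose with both treatments at 24 h, by at most 0.41.

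Genes that TrkB signalling is known to induce moved in both directions. Of 14 tested, 4 rose and 1 fell with WS1442 at 6 h, where 3.94% of all genes were called higher and 1.33% lower. At 24 h with WS1442, 5 rose and 1 fell (12.8% and 11.8% of all genes). With MeOH eluate, 3 rose and 1 fell at 6 h (8.68% and 8.34% of all genes). At 24 h with MeOH eluate, 3 rose and 3 fell (9.61% and 8.55% of all genes). Nr4a1, an immediate early nuclear receptor, rose with WS1442 by 0.63 at 6 h and 1.18 at 24 h, and with MeOH eluate by 0.60 and 0.95. Arc, a synaptic immediate early gene, rose in the same 4 comparisons by 0.48 to 0.65. Egr2 rose with WS1442 by 1.02 at 6 h (limma adjusted p = 0.00145) and by 0.43 at 24 h, and with MeOH eluate by 0.53 at 6 h (adjusted p = 0.0198). Egr1 rose with WS1442 at both times, by 0.40 and 0.37, and Fosl1 rose at 24 h by 0.96 with WS1442 and 0.70 with MeOH eluate. Dusp6, a phosphatase that ERK signalling induces and that the RET list also holds, fell in all 4 comparisons, with log2 changes from -1.15 (MeOH eluate at 6 h) to -0.24 (WS1442 at 24 h), and Npy fell with MeOH eluate at 24 h (-0.62). Many signals other than TrkB induce these genes.

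Genes that RET signalling induces in the kidney duct differed between the treatments at 24 h. With MeOH eluate 5 of 9 tested genes fell and 1 rose, where 8.55% of all genes were called lower and 9.61% higher. Etv4 and Etv5, transcription factors downstream of RET and FGF signalling, fell with MeOH eluate (log2 changes -0.72 and -0.31) and rose with WS1442 (0.27 and 0.19). The direct comparison gave -0.997 for Etv4 (limma adjusted p = 3.02e-07) and -0.50 for Etv5 (adjusted p = 9.68e-05). Met, the receptor of hepatocyte growth factor, rose with both, by 0.81 with WS1442 and 0.78 with MeOH eluate.

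**Figure D4:**
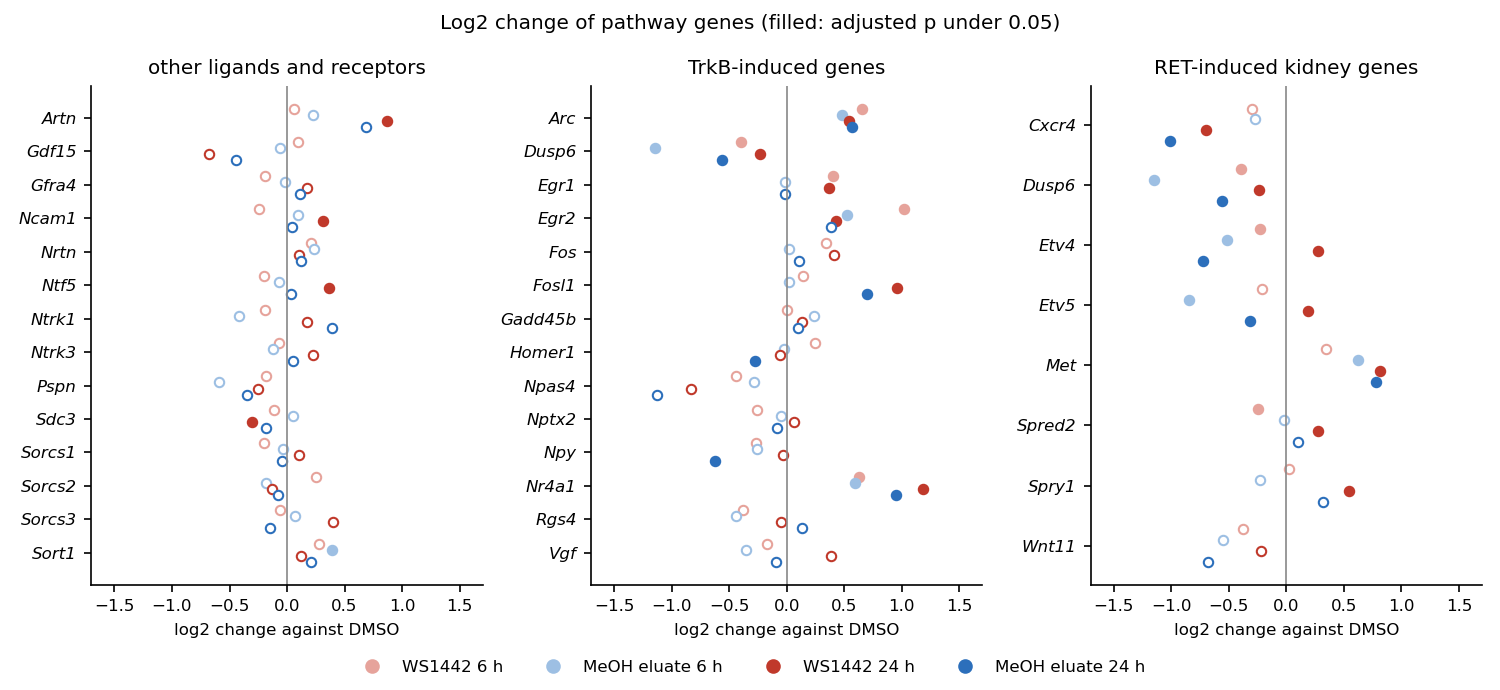
Log2 change against DMSO (horizontal axis) of genes of 3 pathway lists, those reported here, with each treatment and time. Filled points are called at an adjusted p under 0.05 in limma and open points are not. Nr4a1 and Arc lie to the right in all 4 comparisons and Dusp6 to the left, and Etv4 lies on opposite sides with WS1442 and MeOH eluate at 24 h.

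The genes whose pattern was most like that of a member were found by the correlation of normalized log2 signals over the 16 arrays, after the mean of each time point was removed, among 17065 named genes. The values describe these arrays, whose treated groups share DMSO arrays. For Gfra3 the correlation includes the 6 h values that chose the gene. Its closest genes were thus picked in part by the same 6 h difference and give it no support. Closest to Gfra3 were Zfp36l1, Stxbp6 and Emc9 (Pearson r = 0.94 for each), with log2 changes at 6 h of 0.42 to 0.54 for WS1442 and 0.60 to 0.69 for MeOH eluate. Among the closest to Bdnf were Dnase2b and Epc2 (both r = 0.94), with log2 changes at 24 h of 0.44 to 0.49 for WS1442 and -0.01 to 0.12 for MeOH eluate. Closest to Gdnf were Elf4 (r = 0.95), Dusp15 (r = 0.94) and Mamstr (r = 0.93).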

How the data were processed

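The authors had RNA labelled with Cy3, hybridised to one-colour Agilent arrays and scanned. The deposited scanner intensities are background-subtracted and not normalized between arrays. A deposited table of the authors holds quantile normalized intensities, and each of its 16 columns matched best its own array. It served as an alternative. Gene spots of a probe were averaged, spots marked non-uniform by the scanner software (3 to 25 per array) were set missing, and log2 intensities, computed here from the deposited signals, were quantile normalized. Each gene was represented by its tested probe of highest mean signal. The 6 group means were fitted with limma 3.58.1 in R 4.3.3 (eBayes with trend). Tables and figures used Python 3.11.15 and matplotlib 3.10.9. The procedure was tested on simulated data. The paper names Student's t-test in general and quantile normalization for the arrays, so this test was run as an alternative.

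The 9 members and all gene lists were chosen with earlier results of these data known. All 12 member probes are reported, list genes may be named with their values, and likeness is given for members above background on at least 12 arrays (3 genes each). Gene names came from RefSeq (GRCm38.p6) by accession; 45157 of 60273 probes had a name. Replicate numbers did not pair the arrays (correlations of deviations between -0.22 and 0.28). Only the arrays were used. Some genes of the lists and of the likeness search are not reported here by name, and counts include them.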

Additional observations from a re-analysis of the deposited data

Results flagged for a closer look

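For Gfra3 the 3 WS1442 arrays lay above both DMSO arrays at 6 h (log2 difference 2.05, a value that chose the gene and has no test) and below both at 24 h (log2 difference -0.38, 95% interval -0.80 to 0.05, limma adjusted p = 0.197). The 24 h difference was not called in any of the 26 alternative settings. The difference between the times was not tested, because the 6 h values chose the gene.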

How the results depend on the processing

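Values were recomputed with up to 11 kinds of alternative, among them leaving out each of the 16 arrays. Most results had 26 settings in all, and 22 to 25 were possible for Bdnf probe 2, Ntrk2 probe 2 and the MeOH eluate effect at 24 h minus that at 6 h, since not every fit holds a gene's dimmer probe, a dim probe or both times. No called value changed sign. A value called in neither setting was judged only by how far it moved.

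The count of members over 2-fold with WS1442 at 6 h, 1, was 0 with normexp. The members called with WS1442 at 24 h, 2, were 1 with array weights and 0 with Student's t-test, and 1 to 2 with an array left out (1, Bdnf, without DMSO replicate 1 or WS1442 replicate 3). Those called between MeOH eluate and WS1442 at 24 h, 3, were 0 with Student's t-test and 1 to 5 with an array left out. Only Bdnf was called there without WS1442 replicate 2 or 3 or MeOH eluate replicate 1 or 2, and without WS1442 replicate 3 of 6 h Gfra1 and Gfra2 were called too. Gfra1 then passed the filter through the other 2 WS1442 arrays of 6 h, while 0 of 3 WS1442 and 1 of 3 MeOH eluate arrays of 24 h were above background for it. With MeOH eluate at 6 h the count of 0 became 1 (Ntf3) without DMSO replicate 2, a range of 0 to 1.

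For the pathway lists Student's t-test gave 0 calls with WS1442 at 6 h and 24 h, with MeOH eluate at 6 h and between the treatments at 6 h, 3 with MeOH eluate at 24 h and 2 between the treatments at 24 h (11, 36, 18, 14, 28 and 22 with limma). In all, that test called 1 to 202 genes after adjustment in each comparison, against 1541 to 7212 with limma. A fit to 1 time point gave 5 calls with WS1442 at 6 h and 9 between the treatments at 6 h. With an array left out the list calls ranged from 3 to 14 with WS1442 at 6 h, 10 to 19 with MeOH eluate at 6 h, 21 to 38 with WS1442 at 24 h, 20 to 28 with MeOH eluate at 24 h, 6 to 17 between the treatments at 6 h and 12 to 24 at 24 h, lowest at 6 h (WS1442, MeOH eluate) and at 24 h (WS1442) without DMSO replicate 1. Scaling to the 75th percentile moved the share of called genes that were higher from 74.8% to 84.9% (WS1442 at 6 h), 52% to 40.3% (WS1442 at 24 h), 52.9% to 42.9% (MeOH eluate at 24 h) and 39.6% to 20.8% (MeOH eluate against WS1442 at 6 h).

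Replicate numbers did not pair the arrays. With a replicate block the members called between MeOH eluate and WS1442 at 24 h were 2 (Gfra3 lost), and the list calls were 5 with WS1442 at 6 h and 9 between the treatments at 6 h. The causes of these shifts were not tested.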
